A study of Mus musculus with 20 samples.

Results

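The proteasome subunit genes were taken as all genes whose symbol in the array annotation starts with Psm, a letter from a to g and a number, on probe sets listed with a single gene. This rule found 48 of the 12393 genes represented on the arrays, on 85 probe sets. Psmc3ip and Psme3ip1 match the rule by their symbols and name no subunit, which leaves 46 genes on 83 probe sets: 8 core alpha subunits, 7 constitutive core beta subunits, 3 inducible beta subunits, 6 ATPases, 3 other base subunits, 8 lid subunits, 4 activators or inhibitors and 7 assembly chaperones. Of the 46, 43 lay above the filter on low signal (a mean of 7.08 on the log2 scale). The 3 below it were Psma8, the testis-specific alpha subunit, Psmb8, an inducible catalytic beta subunit, and Psmd10, the chaperone gankyrin. Psme2 shares its probe set with Psme2b and was not used.

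The proteasome is the main protease of the cytosol and nucleus and degrades proteins tagged with ubiquitin. Its core particle is a stack of alpha and beta rings, with the proteolytic sites in the inner beta rings (Psmb5, Psmb6 and Psmb7). A regulatory particle caps the core: its ATPase ring (Psmc genes) and the other base subunits bind, unfold and push substrates into the core, and its lid (most Psmd genes) removes the ubiquitin. Beta cells make and clear large amounts of secretory protein.

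MIN6 is a line of mouse beta cells, and its total RNA was measured after growth at 22.7 or 5.5 mM glucose. At each glucose level 1 array came from cells without amylin and 9 came from cells given human amylin at 1, 10 or 20 µM for 2, 12 or 24 h, or 20 arrays altogether. Each condition has a single array, so p-values do not measure the spread between replicate cultures. In the main fit the error is the spread of glucose differences between the 10 matched amylin conditions. The time and dose contrasts use that same error, so glucose differences in a time or dose effect count as noise there. In the fit with separate effects at each glucose level, the error is what additive dose and time effects leave over. The number of arrays limits the precision. In such bulk RNA, fewer cells with a transcript and less transcript per cell cannot be told apart.

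Of 13 beta cell markers listed, 10 had a probe set of their own, and all 10 lay above the filter, from a mean of 10.12 for Nkx6-1 to 14.65 for Ins2. The 2 arrays for which no scanner description was used (22.7 mM with 1 µM for 12 h, and 5.5 mM with 10 µM for 24 h) stood apart. Their array medians were 7.25 and 7.28 against 7.04 to 7.15 in the other 18, and their mean correlations with the other arrays were 0.972 and 0.962 against 0.986 to 0.990. On these 2 arrays the median deviation of 10 fibroblast markers was 0.48 and 0.54, the highest of their glucose levels, and that of the beta cell markers was −0.24 and −0.40, the lowest. Acinar markers stood at 0.64 and 0.74 there, with 1 of 4 above the filter, and immune and endothelial markers at 0.40 and 0.59, with 1 of 5 above it. These too were the highest of their glucose levels, so the rise was not particular to the fibroblast markers. Duct markers stood at −0.07 and 0.01 and other islet hormones at 0.06 and 0.36, each with 2 of 4 above the filter. The means of the duct markers ran from 5.98 for Krt19 to 10.56 for Krt7. Those of the other islet hormones ran from 5.66 for Ghrl to 11.23 for Gcg. Krt7 and Gcg thus lay above Nkx6-1. Only 3 of the 10 fibroblast markers lay above the filter, Fn1 highest at 7.78. RNA quality moved with glucose: the actin 3′ minus 5′ signal averaged 1.83 (SD 0.43, n = 10) at 22.7 mM and 1.22 (SD 0.24, n = 10) at 5.5 mM. Values without those arrays, by scan day or with the actin signal as a covariate are given below for the glucose differences and some other contrasts. No other test of their part was made.

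Psma4 and Psma7, the 2 members that differed with glucose, are shown here by their promoters. The windows run from 250 bases before to 50 bases after the annotated start, 5′ to 3′ on the gene's strand, from RefSeq on GRCm38.p6. The Psma4 window is chr9:54950609-54950908 on the plus strand and the Psma7 window is chr2:180042415-180042714 on the minus strand. Capitals mark CCAAT and GGGCGG on either strand (GGGCGG reads CCGCCC on the other), and matches may overlap.
Psma4: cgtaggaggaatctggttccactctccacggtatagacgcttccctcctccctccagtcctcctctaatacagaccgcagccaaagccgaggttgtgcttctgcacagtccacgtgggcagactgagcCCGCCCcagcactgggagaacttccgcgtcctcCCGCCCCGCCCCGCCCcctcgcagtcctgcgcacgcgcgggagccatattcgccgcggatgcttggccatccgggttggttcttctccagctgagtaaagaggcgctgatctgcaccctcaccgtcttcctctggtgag
Psma7: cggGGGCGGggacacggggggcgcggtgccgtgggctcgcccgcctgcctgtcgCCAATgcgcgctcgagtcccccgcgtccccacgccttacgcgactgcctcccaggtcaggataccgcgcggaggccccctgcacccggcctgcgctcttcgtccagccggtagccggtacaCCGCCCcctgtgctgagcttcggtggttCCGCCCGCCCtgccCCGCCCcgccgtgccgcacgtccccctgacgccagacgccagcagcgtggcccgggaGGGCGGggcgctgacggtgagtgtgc

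The Psma4 window held 4 matches to GGGCGG and 0 to CCAAT. In the Psma7 window there were 6 matches to GGGCGG and 1 to CCAAT. A promoter was found in the RefSeq table for 38 of the 46 genes. GGGCGG was present in the windows of 22 of the 38, against 35.7% of all 32851 promoters of the same length, and CCAAT in 13 of the 38, against 37.4%. TGACNNNGC, the core letters of the antioxidant response element, was found on either strand for 6 of the 38 (Psmb5, Psmb6, Psmc6, Psmd9, Psmd12 and Psme4), against 12.4% of all promoters, and in neither window printed above.

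The mean signals over the 20 arrays were 10.67 for Psmb5, 10.13 for Psmb6 and 11.39 for Psmb7, which carry the constitutive proteolytic sites. Their inducible counterparts gave 6.60 (Psmb8, under the filter), 7.19 (Psmb9) and 7.51 (Psmb10). Signals of different probe sets also depend on the probes, so these levels set no order between genes. How far a gene moved between arrays differed within the set: the SD over the 20 arrays ran from 0.12 for Psmc2, an ATPase, to 0.54 for Psmd7, a lid subunit, whose values ran from 6.72 to 8.70.

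**Figure D1:**
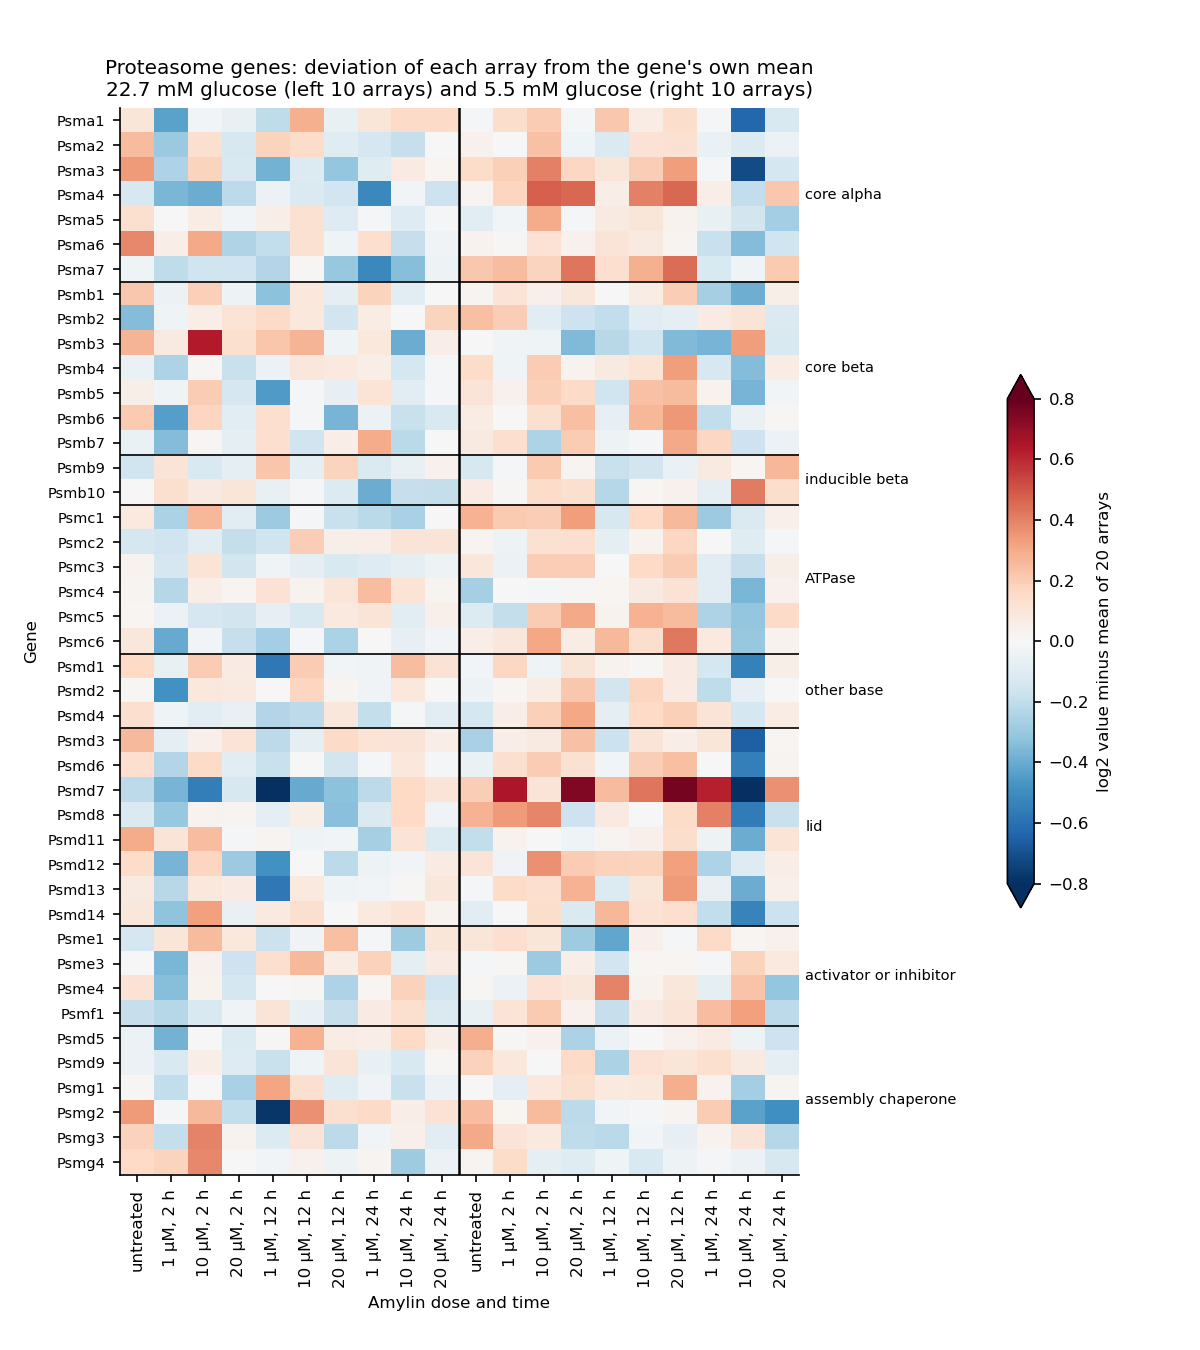
Deviation of the log2 value of each of the 43 tested genes (rows, by class) from its own mean over the 20 arrays, for each array (columns, by glucose, dose and time); colours saturate at the ends of the scale. The column of 5.5 mM with 10 µM for 24 h is low across the lid and high across the activators, and the row of Psmd7 has the widest range.

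The arrays differed as wholes. At 22.7 mM with 1 µM for 2 h the median deviation of the 43 genes from their own means was −0.20, and only 8 of the 43 lay above their mean. The next lowest array, 5.5 mM with 10 µM for 24 h, stood at −0.17 with 10 of the 43 above. On it all 8 lid genes were below their means, with a median of −0.54, while all 4 activator or inhibitor genes were above, with a median of 0.20. The highest array was 5.5 mM with 20 µM for 12 h, at 0.14 with 37 of the 43 above, including all 7 core alpha, all 6 ATPase and all 8 lid genes.

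Between 22.7 and 5.5 mM glucose, with each array matched to that of the same dose and time, 2 of the 43 genes fell at 22.7 mM and 0 rose. Both are core alpha subunits, which form the outer rings and the gate of the core. Over all 7436 genes tested, 5.49% passed the same test (limma, adjusted p under 0.05), 1.86% lower and 3.63% higher, so the share among the proteasome genes was near the background. The median difference of the 43 was −0.06, with 26 negative, against 0.04 over all genes, of which 38.7% were negative. The size of this median was not stable. It was −0.029 with 24 negative without either array of the pair at 1 µM for 2 h, and −0.029 without either at 20 µM for 2 h. It was −0.009 with 23 negative when the actin 3′ minus 5′ signal was a covariate, and −0.098 with 34 negative after quantile normalization again.

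Psma7 encodes the alpha 4 subunit. Its log2 values ran from 9.85 to 10.37 at 22.7 mM (median 10.19, n = 10) and from 10.25 to 10.81 at 5.5 mM (median 10.58, n = 10). The ranges overlapped, but in all 10 matched pairs the 22.7 mM array was the lower one. The mean difference was −0.40 (SE 0.06, limma adjusted p = 0.00635), so that the linear signal fell by 24.0%.

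Psma4 encodes the alpha 3 subunit, whose tail takes part in closing the gate. It ran from 9.98 to 10.47 at 22.7 mM (median 10.33, n = 10) and from 10.30 to 10.97 at 5.5 mM (median 10.69, n = 10). The 22.7 mM array was lower in 9 of the 10 pairs, and the exception was the pair at 10 µM for 24 h. Here the difference was −0.43 (SE 0.09, limma adjusted p = 0.0172), so that the linear signal fell by 25.5%.

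Scan day, known for 18 arrays, is the day named in the scanner descriptions. Within the 3 scan days that held both glucose levels, Psma4 differed by −0.43 (1 array against 3), −0.71 (4 against 3) and −0.38 (4 against 2). Psma7 differed by −0.46, −0.54 and −0.20 in the same days. These values are not matched on amylin condition, and the day left over held 1 array. With the actin 3′ minus 5′ signal as a covariate, neither passed: Psma4 was at −0.22 (SE 0.15, limma adjusted p = 0.585) and Psma7 at −0.36 (SE 0.11, limma adjusted p = 0.303). Without the covariate Psma4 was at −0.43 (SE 0.09) and Psma7 at −0.40 (SE 0.06), so both SEs rose and mainly the Psma4 estimate shrank. The fit with the covariate (limma) called 0 of the 7436 genes, of which 864 had an unadjusted p under 0.05, 1 of the 43 members among them.

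Single pairs decided some calls. Without either array of the pair at 10 µM for 2 h, Psma4 was at −0.37 (limma adjusted p = 0.0539 and 0.0541), and without either array at 20 µM for 12 h at −0.40 (limma adjusted p = 0.0562 in both). Psma7 passed in each of the 20 fits that left out an array, with adjusted p-values from 0.00204 to 0.0263.

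**Figure D2:**
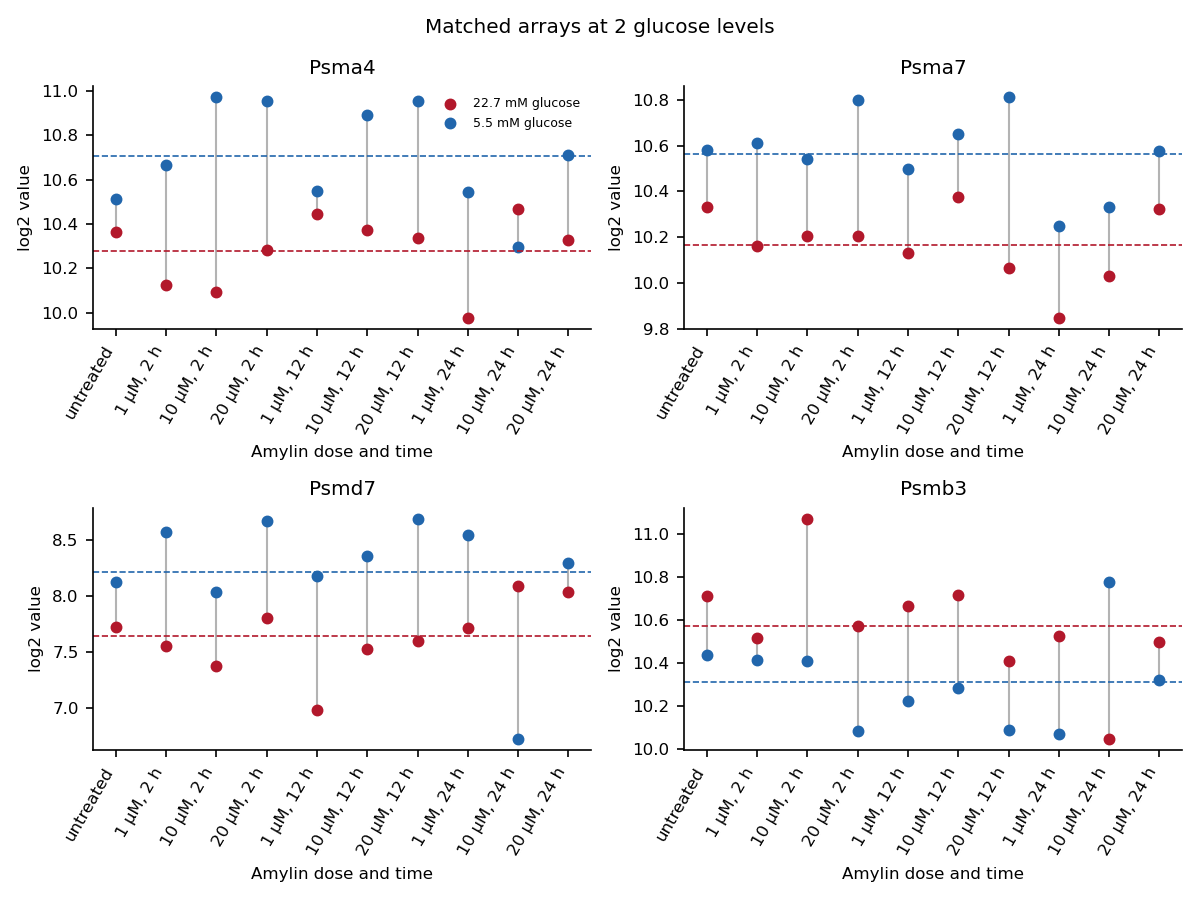
Log2 values of Psma4, Psma7, Psmd7 and Psmb3 on the arrays at 22.7 mM (red) and 5.5 mM glucose (blue) for each amylin condition; grey lines join matched arrays and dashed lines are the means of 10. Psma7 is lower at 22.7 mM in all 10 pairs, and in the other panels the pair at 10 µM for 24 h runs against the rest.

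The largest difference among the members was that of Psmd7, the partner of the deubiquitinase Psmd14 in the lid, and it did not pass. Its values ran from 6.98 to 8.09 at 22.7 mM (median 7.66) and from 6.72 to 8.70 at 5.5 mM (median 8.33). The 22.7 mM array was lower in 9 of 10 pairs, with a mean difference of −0.58 (SE 0.18, limma adjusted p = 0.0741). The lowest value of all, 6.72, came from the array of 5.5 mM with 10 µM for 24 h. Leaving out that array gave −0.80 (limma adjusted p = 9.9e-05), and leaving out both arrays without a scanner description gave −0.75 (limma adjusted p = 0.000181). It was smaller under 2 other settings: −0.24 with the actin signal as a covariate (limma adjusted p = 0.785) and −0.18 as the mean of its 3 probe sets (limma adjusted p = 0.115). Of those 3 probe sets, only the brightest lay above the filter when probe sets were tested singly, so this mean includes low signals.

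Psmb3, a structural beta subunit, had the highest difference, 0.26 (SE 0.10, limma adjusted p = 0.151). It ran from 10.04 to 11.07 at 22.7 mM (median 10.55) and from 10.07 to 10.78 at 5.5 mM (median 10.30), higher at 22.7 mM in 9 of 10 pairs. Without the array of 5.5 mM with 10 µM for 24 h it was 0.37 (limma adjusted p = 0.00365). With the actin signal as a covariate it was 0.03 (limma adjusted p = 0.956), and as the mean of its probe sets 0.05 (limma adjusted p = 0.796). In the fit without that array 8.82% of all genes passed, and so did 5 of the 43 members: Psma4, Psma7, Psmd7 and the ATPase Psmc6 lower and Psmb3 higher. Leaving out its partner array at 22.7 mM gave the same 5 genes.

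By class, negative differences were counted in 4 of 7 core alpha, 4 of 7 core beta, 2 of 2 inducible beta, 5 of 6 ATPase, 2 of 3 other base, 5 of 8 lid, 2 of 4 activator or inhibitor and 2 of 6 assembly chaperone genes. The class medians ran from −0.09 for the ATPases to 0.02 for the assembly chaperones, so no class stood far from the others. Without adjustment 7 of the 43 had a p under 0.05, against 22.6% of all genes. These were Psma4, Psma7, Psmd7 and Psmb3, given above, the ATPases Psmc1 (−0.19) and Psmc6 (−0.23) and the lid scaffold gene Psmd12 (−0.21). After Psmb3 the highest differences were 0.10 for the ATPase Psmc4 and 0.09 for the lid gene Psmd3.

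The catalytic subunits did not pass. Psmb5, with chymotrypsin-like activity, was at 10.62 (SD 0.17, n = 10) and 10.71 (SD 0.19, n = 10), a difference of −0.09. For Psmb6, with caspase-like activity, the difference was −0.15, and for Psmb7, with trypsin-like activity, −0.07. Of their inducible counterparts, which interferon brings into the immunoproteasome, Psmb9 differed by −0.01 and Psmb10 by −0.13, while Psmb8, tested only without the filter, differed by −0.13. Over these 6 genes the limma adjusted p-values ran from 0.335 for Psmb10 to 0.937 for Psmb9.

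**Figure D3:**
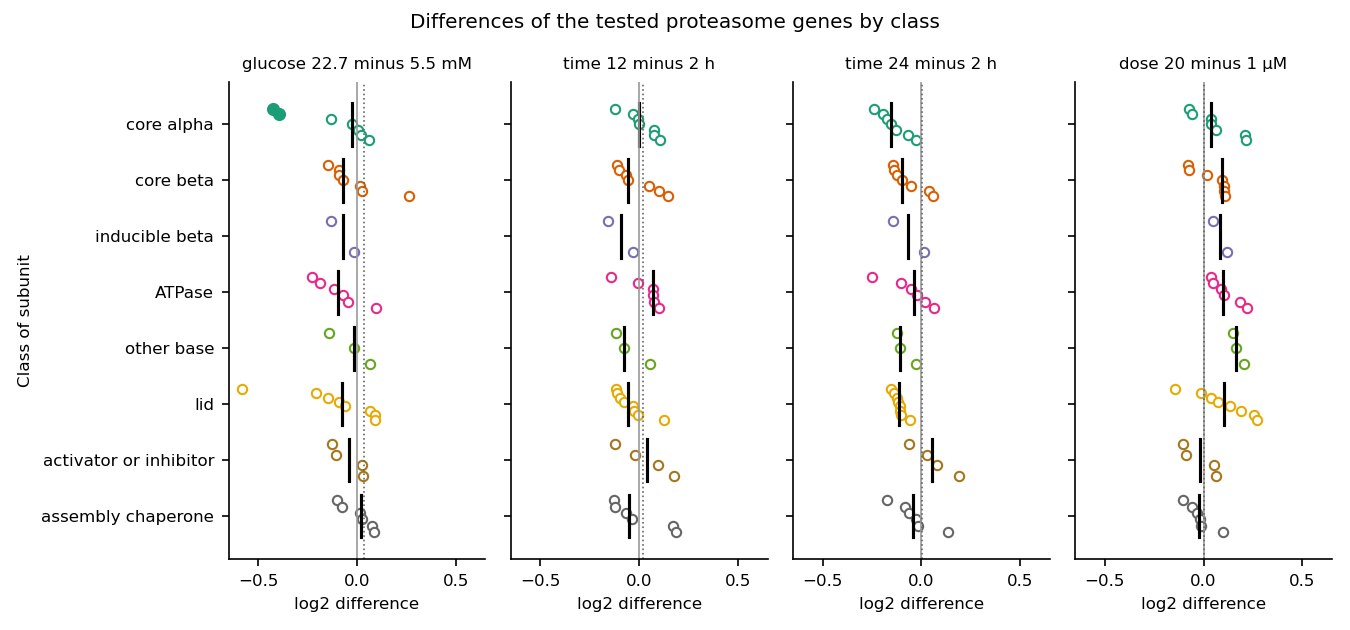
Log2 differences of the 43 tested genes by class for glucose, 12 minus 2 h, 24 minus 2 h and 20 minus 1 µM; circles are genes, filled where the adjusted p was under 0.05, black bars are class medians and the dotted line is the median of all 7436 genes. Psma4 and Psma7 are the only filled circles.

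Several genes had more than 1 probe set, which test different stretches of the transcript or different transcripts. When each probe set was tested on its own, 64 probe sets of 44 member genes entered and 4 passed, all lower at 22.7 mM, against 8.12% of the 12228 probe sets. They were those of Psma4 and the brighter of Psma7, and dimmer probe sets of Psmd4, a ubiquitin receptor of the base, and Psme4, the activator PA200.

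The probe sets of a gene often differed. For Psme4 the passing probe set was at −0.61 (SE 0.10, limma adjusted p = 0.00357), while the other probe sets gave −0.11 and 0.09. Psmd4 had −0.49 (SE 0.12, limma adjusted p = 0.0217) on the passing probe set and −0.14 and −0.13 on the others. The second probe set of Psma7 was at −0.23 (limma adjusted p = 0.110), and for Psmb3 the second probe set was at −0.16, opposite in sign to the brighter one. In all, 8 of the 15 genes with several tested probe sets had differences of both signs.

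**Figure D4:**
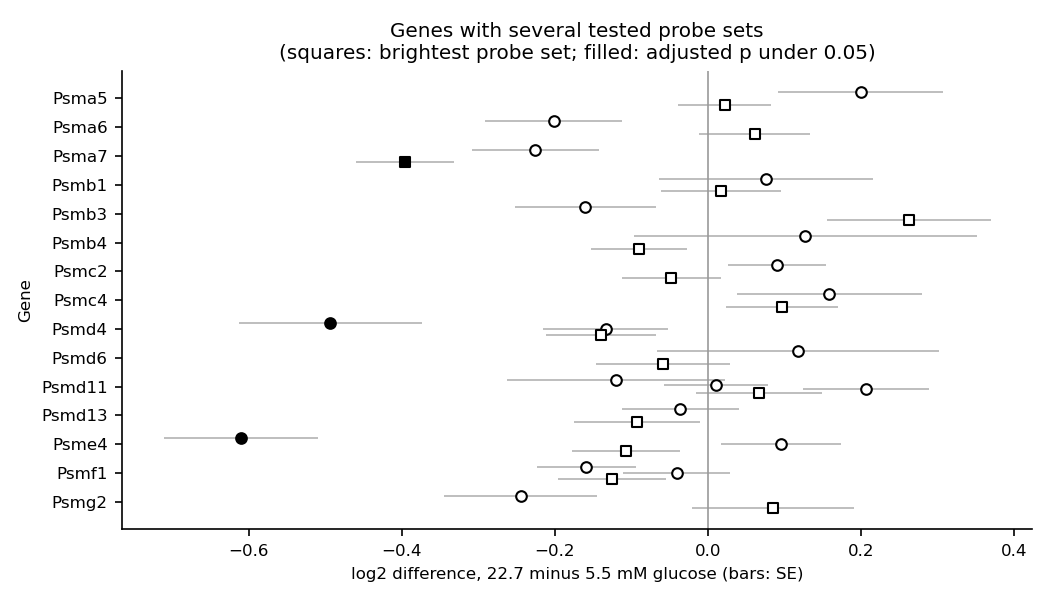
Log2 difference between 22.7 and 5.5 mM glucose for each tested probe set of the 15 genes that have several; bars are standard errors, squares mark the brightest probe set and filled symbols an adjusted p under 0.05. Probe sets of Psma7, Psmd4 and Psme4 passed, and 8 genes lie on both sides of 0.

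Over the time of amylin exposure, with glucose and dose matched, 0 of the 43 genes passed between 24 and 2 h (limma), where 0.0538% of all genes did. Without adjustment 2 of the 43 had a p under 0.05, against 8.66% of all genes. The median difference was −0.10 with 34 of the 43 negative, against a median of 0.005 over all genes, of which 48.7% were negative. All 7 core alpha genes (median −0.15), all 8 lid genes (median −0.11) and all 3 other base genes (median −0.11) were negative, while 3 of the 4 activator or inhibitor genes were positive (median 0.05).

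The lowest differences were those of Psmc1, Psma3 and Psma7. Psmc1, an ATPase, ran from 9.24 to 9.57 at 24 h (median 9.37, n = 6) and from 9.28 to 9.87 at 2 h (median 9.74, n = 6). Those ranges overlapped and 4 of 6 pairs were lower at 24 h (−0.25, SE 0.09, limma adjusted p = 0.4295). For the alpha genes the differences were −0.24 (Psma3) and −0.20 (Psma7). Highest were Psme3, the nuclear activator PA28 gamma, at 0.19, the chaperone Psmd5 at 0.14 and the inhibitor Psmf1 at 0.08, none of which passed.

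Without 5.5 mM with 10 µM for 24 h, the median of the 43 genes between 24 and 2 h was −0.006 with 23 negative, and without both arrays that have no scanner description it was −0.01 with 24 negative. With scan day as a block it was 0.01. The size of this median therefore depended on the array of 5.5 mM with 10 µM for 24 h. With single arrays left out it ran from −0.119 to −0.006. At 5.5 mM alone, in the separate fit given below, the median without that array was −0.10 with 38 of 43 negative.

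Between 12 and 2 h, 0 of the 43 genes passed (limma), against 0.108% of all genes. None had an unadjusted p under 0.05 (0 of 43, against 9.31% of all genes), and the median difference was −0.03 against 0.02 over all genes. Psmb10 had the lowest difference, −0.16, and was lower at 12 h in 6 of 6 pairs, with values from 7.28 to 7.54 (median 7.47, n = 6) against 7.52 to 7.66 (median 7.62, n = 6) at 2 h. Its ranges overlapped slightly and its limma adjusted p was 0.710. Psmc1 (−0.14) and the chaperone Psmg4 (−0.13) followed, and the highest were the chaperones Psmg1 (0.19) and Psmd5 (0.17) and Psme3 (0.17). Between 24 and 12 h 0 of the 43 passed, as did 0% of all genes, 4 had an unadjusted p under 0.05 against 5.18%, and the median was −0.05 with 34 negative.

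The dose comparisons gave no called gene either. Between 20 and 1 µM, with glucose and time matched, 0 of the 43 and 0% of all genes passed (limma). An unadjusted p under 0.05 was found for 4 of the 43, against 2.37% of all genes, and all 4 were higher at 20 µM, as were 1.2% of all genes. The median difference was 0.06 with 30 of 43 positive, against 0.0009 over all genes. All 6 ATPase and all 3 other base genes were positive, with medians of 0.10 and 0.16, and the lid median was 0.11 with 6 of 8 positive. Core alpha and core beta each had 5 of 7 positive, with medians of 0.04 and 0.09. The assembly chaperones went the other way, with 5 of 6 negative (median −0.02), and 2 of 4 activator or inhibitor genes were negative (median −0.02).

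The 4 genes were Psmd13, Psmc1, Psma7 and Psmd2. Psmd13, a lid subunit, ran from 9.82 to 10.20 at 20 µM (median 9.93, n = 6) and from 9.28 to 10.01 at 1 µM (median 9.77, n = 6), higher in 6 of 6 pairs (0.27, SE 0.11, limma adjusted p = 0.998). Psmd2, a large scaffold of the base, was also higher in 6 of 6 pairs (0.20), as was Psmc1 (0.22), and Psma7 was higher in 5 of 6 (0.21). Psmd7 differed by 0.26 without reaching an unadjusted p under 0.05. Lowest were Psmd8 (−0.14), Psmg4 (−0.10) and Psme4 (−0.10).

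The array that was lowest over all members, 22.7 mM with 1 µM for 2 h, belongs to the 1 µM side of this comparison. Without it the median between 20 and 1 µM was 0.04 with 19 of 43 negative, and 1 gene had an unadjusted p under 0.05. The lowest median with 1 array left out was 0.02, with 18 negative and 0 genes at an unadjusted p under 0.05, without 5.5 mM with 20 µM for 12 h. The highest was 0.10, without 5.5 mM with 1 µM for 2 h. The share of all genes with an unadjusted p under 0.05 is not given for these refits. The comparison of 10 with 1 µM shares the 1 µM arrays: its median was 0.07 with 34 of 43 positive, and 0 of 43 and 0% of all genes were called, with 3 of 43 at an unadjusted p under 0.05 against 2.8% of all genes. Between 20 and 10 µM the median was 0.00001, 0 of 43 and 0% of all genes were called, and 3 members reached an unadjusted p under 0.05, against 2.78% of all genes.

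Against untreated cells, of which there was 1 array per glucose level, the mean of the 9 amylin conditions gave 0 of 43 genes past the test (limma), as for 0% of all genes. An unadjusted p under 0.05 was found for 1 of the 43, against 5.63% of all genes. The median of the members was −0.05 and that of all genes −0.06. The 1 gene was Psmg3, a chaperone of core assembly, at 8.79 (22.7 mM) and 8.91 (5.5 mM) in untreated cells. With amylin it ran from 8.39 to 9.004 at 22.7 mM and from 8.38 to 8.71 at 5.5 mM, so that at 5.5 mM the untreated array was above all 9 others (−0.27, SE 0.11, limma adjusted p = 0.776).

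A second limma fit, in which dose and time effects could differ between the glucose levels, compared the change from 2 to 24 h between them. It was −0.20 in the median member at 5.5 mM, with 35 of 43 negative, and 0.06 at 22.7 mM, with 16 negative. Over all genes the medians were −0.02 at 5.5 mM, with 53.3% negative, and 0.02 at 22.7 mM, with 45.8% negative. At 5.5 mM 0 of the 43 and 0.0538% of all genes passed, and 12 of the 43 had an unadjusted p under 0.05, against 14.2% of all genes. At 22.7 mM 0 of the 43 and 0% of all genes passed, and 4 of the 43 had one, against 6.75%. The median difference between the levels was 0.24, with 36 of 43 positive, against 0.06 over all genes, of which 42.8% were negative. None passed (0 of 43 and 0% of all genes, limma; smallest adjusted p 0.447), and 8 of the 43 had an unadjusted p under 0.05, against 10.7% of all genes. All 7 core alpha, all 6 ATPase and 7 of 8 lid genes had a positive difference, while both inducible beta genes had a negative one.

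Psma1, an alpha subunit, had the smallest p. At 5.5 mM it was at 9.37, 9.43 and 9.22 after 2 h of 1, 10 and 20 µM and at 9.22, 8.60 and 9.11 after 24 h. At 22.7 mM it was at 8.80, 9.20 and 9.17 after 2 h and at 9.32, 9.38 and 9.38 after 24 h. The change from 2 to 24 h differed by 0.67 between the glucose levels (SE 0.20, limma adjusted p = 0.447). The lowest of the values listed, 8.60 and 8.80, are those of the 2 arrays that were lowest over all members.

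Psmb10 differed in the opposite direction (−0.42, SE 0.16, limma adjusted p = 0.447). At 22.7 mM it was at 7.64, 7.58 and 7.60 after 2 h of 1, 10 and 20 µM and at 7.12, 7.33 and 7.32 after 24 h. At 5.5 mM it was at 7.52, 7.66 and 7.64 after 2 h and at 7.43, 7.93 and 7.65 after 24 h. Without the array of 5.5 mM with 10 µM for 24 h, the median of the members at 5.5 mM was −0.10 with 38 of 43 negative. Over all genes it was 0.01, with 47.5% negative. There 2 rather than 12 members had an unadjusted p under 0.05. After quantile normalization again, with all 20 arrays, the median at 5.5 mM was −0.08 with 31 negative, and 3 rather than 12 members had one. Over all genes it was 0.007, with 48.7% negative. The share of all genes with an unadjusted p under 0.05 is not given for these 2 refits.

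**Figure D5:**
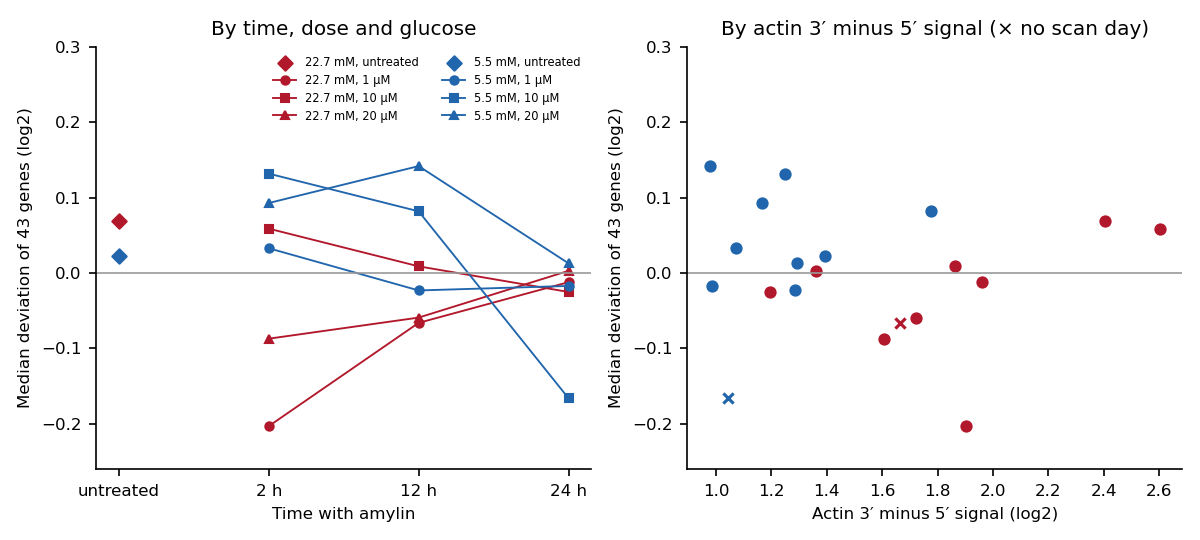
Median deviation of the 43 tested genes from their own means on each array, by time, dose and glucose (left; red 22.7 mM, blue 5.5 mM), and against the actin 3′ minus 5′ signal of the array (right; crosses mark the 2 arrays without a known scan day). The 22.7 mM array with 1 µM for 2 h is lowest at −0.20 and the 5.5 mM array with 10 µM for 24 h next at −0.17.

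The remaining contrasts between conditions gave no called member. The difference between glucose levels in the change from 2 to 12 h had a median of −0.006, with 0 of 43 and 0% of all genes past the test and 0 of 43 at an unadjusted p under 0.05, against 1.59% of all genes. For the change from 1 to 20 µM the glucose levels differed by a median of −0.03, again with 0 of 43 and 0% of all genes past the test. There the ATPase Psmc5 alone had an unadjusted p under 0.05 (−0.38), against 4.55% of all genes. Between 24 and 2 h the effect of dose (20 minus 1 µM) differed by a median of −0.08, 0 of 43 and 0% of all genes were called, and 0 of 43 reached an unadjusted p under 0.05 against 1.3% of all genes.

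Of 30 other genes of the pathway that were listed, 20 had a probe set of their own and all 20 were tested. With glucose 2 of the 20 fell and 0 rose, where 5.49% of all genes passed and 1.86% fell. With the actin signal as a covariate 0 of all 7436 genes passed, these 2 included. Zfand5, which encodes a ubiquitin-binding zinc finger protein, was at −0.47 (SE 0.09, limma adjusted p = 0.0143), and Ufd1, a cofactor of the segregase Vcp that hands substrates to the proteasome, at −0.33 (SE 0.08, limma adjusted p = 0.0266). Vcp itself was at −0.17 (limma adjusted p = 0.346). In the contrasts of time, dose and amylin 0 of the 20 passed, and the smallest unadjusted p between 24 and 2 h was that of Zfand5 (−0.45, limma adjusted p = 0.249).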

How the data were processed

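RNA of MIN6 cells was hybridised to 20 Affymetrix mouse arrays of 22690 probe sets, 1 array per condition. Values are on the log2 scale. The authors made the deposited log2 values with RMA in affy 1.12.2 under R 2.4.0, per the submitters' processing notes. The scan day came from the scanner descriptions of 18 arrays. Precision is limited by the number of arrays.

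After 64 control probe sets were set aside, 20380 probe sets listed with 1 gene were kept. For each of 12393 genes the probe set with the highest mean stood for the gene. The 40% of genes with the lowest mean were left out, and 7436 were tested. The test was limma 3.58.1 under R 4.3.3, using lmFit and the eBayes moderation with a mean trend. Its terms were glucose and a factor of the 10 amylin conditions (9 residual degrees of freedom), or, for differences between glucose levels, separate amylin, dose and time effects at each level (8). P-values were adjusted over all 7436 genes by the Benjamini-Hochberg method at 0.05. The fits were tested on simulated data with independent noise for each gene and array. That test held no deviant arrays and no RNA quality tied to glucose, so it cannot speak to them. No value column was left unmapped to a sample.

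The members, classes and lists were chosen with earlier results of these data known. Genes named are those past the threshold in any contrast, the 3 highest and 3 lowest for glucose, 24 minus 2 h, 12 minus 2 h and 20 minus 1 µM, and the catalytic and inducible beta subunits. Psmc6, Psmd12, Psmd2, Psmc5, Psma1, Psmg3, Psmd4 and the second probe sets were named after their values were seen. Each array's deviation is the median, over genes, of the value minus that gene's mean of 20 arrays. Alternatives were other filters, median centring, quantile normalization again, the mean of a gene's probe sets, other eBayes settings, an additive model, scan day as a block, adjusting for the actin 3′ minus 5′ signal, omitting both arrays that lack a scanner description, and omitting every array in turn. Scan day in the additive model and each probe set on its own were added after the data were seen.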

Additional observations from a re-analysis of the deposited data

Results flagged for a closer look

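In groups of 10 arrays, 1 per amylin condition at a glucose level, 12 of 88 checks found an array farther from its neighbours than Dixon's limit allows, where chance flags about 1 in 20. The groups hold different conditions, not replicates, and no explanation was tested.

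The array of 5.5 mM with 10 µM for 24 h stood out for 6 genes: it was the lowest for Psma1 (8.60, nearest other 9.11), Psma3 (10.1, nearest 10.6), Psmd1 (9.57, nearest 9.98), Psmd6 (10.4, nearest 10.9) and Psmd7 (6.72, nearest 8.04), and the highest for Psmb3 (10.8, nearest 10.4). The array of 22.7 mM with 1 µM for 12 h was the lowest for 4 genes, Psmb5 (10.2, nearest 10.5), Psmd1 (9.55, nearest 10.1), Psmd13 (9.28, nearest 9.64) and Psmg2 (8.52, nearest 9.10). These 2 arrays are those without a scanner description. The array of 22.7 mM with 1 µM for 2 h was the lowest for Psmc4 (9.33, nearest 9.57) and Psmd2 (10.5, nearest 10.9).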

How the results depend on the processing

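The count of genes past the glucose test, 2 in the reported fit, was 4 after quantile normalization again (4.60% of all genes passed), 4 without the 2 arrays that lack a scanner description (9.99%), 5 with scan day as a block (14.7%), 4 with scan day in the additive model (13.7%) and 0 when adjusted for the actin 3′ minus 5′ difference (0%). The cause was not tested. It ran from 1 to 5 when single arrays were left out. Without 5.5 mM with 10 µM for 24 h it was 5, and 656 of all 7436 genes passed. The shares of all genes in most of the other single omissions are not given. Leaving out an array removes its matched pair from the glucose comparison. In the other contrasts the count was 0 under every alternative fitted, except that leaving out 22.7 mM with 10 µM for 24 h gave 1 gene (Psmd7) between 20 and 10 µM. The share of all genes that passed in that fit is not given, so this call has no background beside it.

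Medians of the members moved by more than their SD over matched pairs or sets of arrays for amylin against untreated (0.0301 after quantile normalization), for the dose change at 24 minus 2 h (−0.0378 after quantile normalization, −0.0213 with the mean of probe sets, −0.0212 with scan day), for the glucose difference in 24 minus 2 h (0.32 after median centring, 0.0875 after quantile normalization, 0.21 with the mean of probe sets, 0.19 without the 2 arrays, 0.34 with the actin covariate) and for the glucose difference in 20 minus 1 µM (0.16 with scan day). With single arrays left out the dose change at 24 minus 2 h ran from −0.14 to 0.0698, and the glucose difference in 24 minus 2 h from 0.18 to 0.33. The median took either sign with single arrays left out between 12 and 2 h (−0.0563 to 0.0168), between 20 and 10 µM (−0.0414 to 0.0426), and in the glucose differences of 12 minus 2 h (−0.0447 to 0.0597) and 20 minus 1 µM (−0.102 to 0.0349). Of the named genes, Psmb9 (glucose, 0.0628 with the actin covariate, −0.0609 to 0.02055 with single arrays left out), Psmd3 (glucose, −0.0326 with scan day) and Psmf1 (24 minus 2 h, −0.0469 with the mean of probe sets) changed sign, none of them past the threshold. With single omissions set aside, 247 other counts and medians stayed within 1.5 times or that SD, and 319 values of named genes kept their direction and side of the threshold. Part of this was fixed in advance. Other filters and other eBayes settings cannot change the estimate of a gene, and counts that were nil in both fits scored as unchanged. The tallies are therefore no measure of robustness. With scan day in the matched fit, amylin against untreated, 12 minus 2 h, 24 minus 12 h, 20 minus 1 µM and 10 minus 1 µM could not be fitted. The additive models hold no term for differences in an effect between doses, times or glucose levels. The glucose fit is matched on amylin condition throughout. No block of replicate numbers was added, since each condition has 1 array.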
